A study of Mus musculus with 15 samples.

Results

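The genes described here are 4 classical cadherins (Cdh1, Cdh2, Cdh3 and Cdh11), the epithelial adhesion gene Epcam and the intermediate filament gene Vim. They were taken by symbol from a table of 17271 genes, and all 6 were found. The table gives RNA-seq values of 15 mouse mammary tumour samples of strain Balbc, all p53-null, from 4 tumour models. The models were 2208L with 8 samples, 2151R with 4, 2225L with 2 and T11 with 1. The samples of 2208L carry the words PBS (4 samples), 3day nt (3 samples) or ROSEN (1 sample) in their titles. Of the samples of 2151R, replicates 3 and 4 are titled NT2 and NT, and replicates 1 and 2 carry other codes, whose meaning is not given. Replicate 1 of 2225L is titled T-Vivo with a CP library number, and replicate 2 carries a ROSEN number. The labels do not say whether samples of a model came from separate animals, so p-values measure the spread between these samples, which may be technical. All groups lack p53 and no normal mammary gland was measured, so the values compare tumours with tumours.

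Each value is a log2 value relative to a reference for that gene which the sources used here do not describe. A value of 0 is that reference and need not be an absence of RNA, and levels of different genes cannot be ranked. Values below are in log2 units. A gene is called different between models when its Benjamini-Hochberg adjusted p-value over all 17271 genes, from limma, is under 0.05. Sequencing depth is unknown because the table holds no counts. T11 is 1 sample, so its values carry no test.

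Cadherins are calcium-dependent adhesion proteins of the cell surface that bind like molecules on neighbouring cells and are tied to actin through catenins. E-cadherin, encoded by Cdh1, and EpCAM mark epithelial cells, and P-cadherin, encoded by Cdh3, is typical of the basal layer of the mammary gland. In the epithelial to mesenchymal transition, cells are described as losing E-cadherin while gaining N-cadherin (Cdh2), cadherin 11 (Cdh11) and vimentin (Vim), which is called the cadherin switch. Fibroblasts, endothelial cells and leukocytes of the tumour stroma also make vimentin, and cadherin 11 is typical of fibroblasts.

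RefSeq (GRCm38.p6) places 3 of the cadherin genes on chromosome 8. These are Cdh11 (102632095 to 102785493), Cdh3 (106510852 to 106556911) and Cdh1 (106603350 to 106670247). The end of Cdh3 and the start of Cdh1 lie 46438 bases apart. Epcam lies on chromosome 17 (87635979 to 87651127) and Vim on chromosome 2 (13574311 to 13582826). The RefSeq promoter table held 2 of the 6 genes, Epcam and Vim. Their windows of 250 bases before and 50 bases after the start are printed because these genes moved in opposite directions between the models. Capitals mark CACCTG on either strand, which reads CAGGTG on the other, the E-box bound by Zeb and Snail repressors.
Epcam, chr17:87635729-87636028, plus strand: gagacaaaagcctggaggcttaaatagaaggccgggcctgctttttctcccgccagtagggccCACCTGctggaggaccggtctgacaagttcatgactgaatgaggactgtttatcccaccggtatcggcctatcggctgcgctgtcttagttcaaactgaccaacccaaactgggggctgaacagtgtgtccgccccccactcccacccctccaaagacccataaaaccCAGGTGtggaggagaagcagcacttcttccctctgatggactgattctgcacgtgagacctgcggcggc
Vim, chr2:13574061-13574360, plus strand: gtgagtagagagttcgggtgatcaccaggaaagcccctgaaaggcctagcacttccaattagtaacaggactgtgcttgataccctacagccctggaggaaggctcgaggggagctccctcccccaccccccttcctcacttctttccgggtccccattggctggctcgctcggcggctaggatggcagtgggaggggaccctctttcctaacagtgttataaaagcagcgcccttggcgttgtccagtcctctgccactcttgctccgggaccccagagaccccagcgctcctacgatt
The Epcam window holds 2 matches, whose first bases lie at -187 and -19 from the start, and the Vim window holds 0. Of 32851 promoter windows of 300 bases in the table, 20.2% hold at least 1 match and 2.9% at least 2. A match is a description of the letters and not a measured binding site.

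The tissue label was compared with lists of cell type markers, each summarised as the mean over its genes of the value minus that gene's mean over the 15 samples. The luminal epithelial score (7 genes) ran from 1.28 to 2.31 in 2208L, from 2.33 to 2.48 in 2225L and from -3.28 to -2.14 in 2151R, and was -7.91 in T11. In 2151R, 6 of those 7 genes were called lower than in 2208L and 1 higher, where 22.7% of all genes were called lower and 26.1% higher. The skeletal muscle score reached 9.25 in replicate 6 of 2208L, 8.71 in its replicate 8 and 5.72 in replicate 3 of 2151R, and was at most 1.61 elsewhere. For the 6 genes, any call or direction that changed on leaving out these 3 samples is given. The library numbers of 2151R are consecutive and apart from the rest, so for 2151R a difference between models and one between library numbers cannot be told apart.

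**Figure D1:**
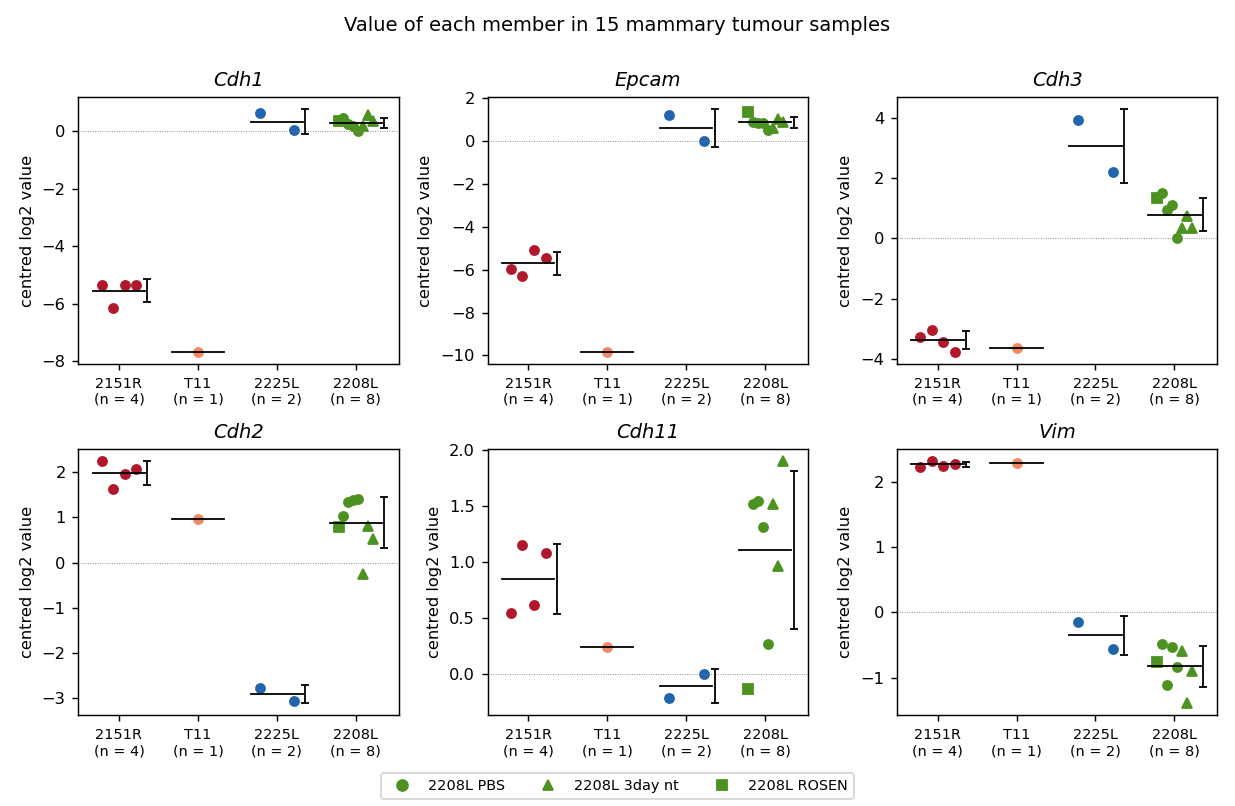
Centred log2 value (vertical axis) of each of the 6 genes in every sample, by model on the horizontal axis; points are samples, horizontal lines are means and error bars are 1 SD. Cdh1, Epcam and Cdh3 were lower in 2151R and T11 than in every sample of 2225L and 2208L, Cdh2 was lowest in 2225L, and Vim was highest in 2151R and T11.

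Between 2151R and 2208L, 5 of the 6 genes were called, against 48.8% of all genes, and the groups did not overlap at those 5, against 38.8% of all genes. The 3 genes lower in 2151R were Cdh1, Cdh3 and Epcam (22.7% of all genes were called lower), and the 2 higher were Vim and Cdh2 (26.1% were called higher). Cdh11 was not called. Between 2225L and 2208L, 3 of 6 were called, against 32.9% of all genes, and the groups did not overlap at 2, Cdh2 and Cdh3, against 31.7%. Cdh2 and Cdh11 were lower in 2225L (17.3% of all genes were called lower) and Cdh3 was higher (15.6%). Between 2225L and 2151R, 5 of 6 were called, against 48.6%, with Cdh1, Cdh3 and Epcam higher in 2225L (22.8% of all genes) and Cdh2 and Vim lower (25.8%). The groups of this last comparison did not overlap at any of the 6, against 62.4% of all genes. Each pair of these comparisons shares the samples of 1 model.

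Cdh1, which encodes E-cadherin, stood at -5.34, -6.13, -5.36 and -5.34 in replicates 1 to 4 of 2151R. In 2208L it ran from 0.01 to 0.56 with a median of 0.30, and it was 0.64 and 0.03 in 2225L. In T11 it was -7.67. The samples of 2151R and T11 were thus all below those of the other models, with no overlap. The difference between 2151R (-5.54 ± 0.39, SD, n = 4) and 2208L (0.30 ± 0.18, SD, n = 8) was -5.84 (SE 0.18, limma adjusted p 3.63e-11). This is 57.3-fold on the deposited scale, and 1.52% of all genes differed by more. Between 2225L and 2208L the difference was 0.03 (SE 0.23, limma adjusted p 0.930), smaller than the spread within either model. The order of the model means was 2225L, 2208L, 2151R and T11, and the first pair did not differ beyond its spread.

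Epcam, whose product is a homophilic adhesion and signalling protein of epithelial cells, had the pattern closest to that of Cdh1. It was -5.97, -6.30, -5.08 and -5.46 in replicates 1 to 4 of 2151R, and -9.83 in T11. The samples of 2208L lay between 0.50 and 1.37 with a median of 0.87, and those of 2225L were 1.23 and 0.00. No sample of 2151R came near the range of 2208L or 2225L. The difference of 2151R from 2208L was -6.58 (SE 0.26; limma adjusted p 2.79e-10), a 95.7-fold difference on the deposited scale. The share of all genes with a larger difference was 0.909%. Between 2225L and 2208L Epcam was not called (difference -0.26, SE 0.34, limma adjusted p 0.588). After each gene's own mean was taken off, Cdh1 and Epcam differed by 0.521 on average over the 15 samples, the smallest such distance among the 15 pairs of the 6 genes.

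Cdh3, which encodes P-cadherin, separated the models with high Cdh1 from each other. Its values in 2225L were 3.92 in replicate 1 and 2.19 in replicate 2. In 2208L they ran from 0.00 to 1.52, with a median of 0.84. In 2151R they were -3.26, -3.05, -3.43 and -3.76, and T11 (-3.64) lay inside the range of 2151R. Every sample of 2225L was above every sample of 2208L, and every sample of 2208L above those of 2151R and T11. Cdh3 was higher in 2225L than in 2208L by 2.27 (SE 0.44, limma adjusted p 0.00164), and lower in 2151R than in 2208L, with a difference of -4.16 (SE 0.34; limma adjusted p 3.87e-07). The 2225L value depends on the sample, with a difference of 1.40 (adjusted p 0.0457) without replicate 1 and 3.14 without replicate 2, and was 1.51 after quantile normalization. Basal epithelial markers moved with it: 4 of 5 were called higher in 2225L than in 2208L, where 15.6% of all genes were. Their score was 3.07 and 5.32 in the samples of 2225L against 0.17 to 1.34 in 2208L. Whether these markers bear on the Cdh3 difference was not tested.

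Cdh3 and Cdh1 share a stretch of chromosome 8, and the 3 nearest genes of the table on each side of every member were listed by position after the member results were known. Around Cdh1 and Cdh3 there were 7 such neighbours, of which 2 were called between 2151R and 2208L, both lower in 2151R, where 48.8% of all genes were called. They were Gm10073, a predicted gene between the pair (difference -1.96, SE 0.43, limma adjusted p 0.00221), and Has3, a hyaluronan synthase gene (difference -1.59, SE 0.42, limma adjusted p 0.00693). The other 5 were not called: Prmt7 differed by -0.40, Smpd3 by -0.60, Zfp90 by -0.41, Tango6 by -0.38 and Chtf8 by 0.77. The differences of these 7 neighbours were thus smaller in size than those of Cdh1 and Cdh3. Listed the same way, 1 of 6 neighbours of Epcam was called, and Calm2, which encodes a calmodulin, differed by 0.03. Around Vim 5 of 6 were called, with Cubn at 4.13 and St8sia6 at -2.67. Around Cdh11 4 of 6 were called, among them the endothelial cadherin gene Cdh5 at 1.52. Around Cdh2 4 of 6 were called, and the lowest were the desmosomal cadherin genes Dsg3 (-8.62) and Dsc2 (-5.22), which thus moved opposite to Cdh2. With so few neighbours and 48.8% of all genes called, nothing particular to these neighbourhoods can be read from the counts.

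**Figure D2:**
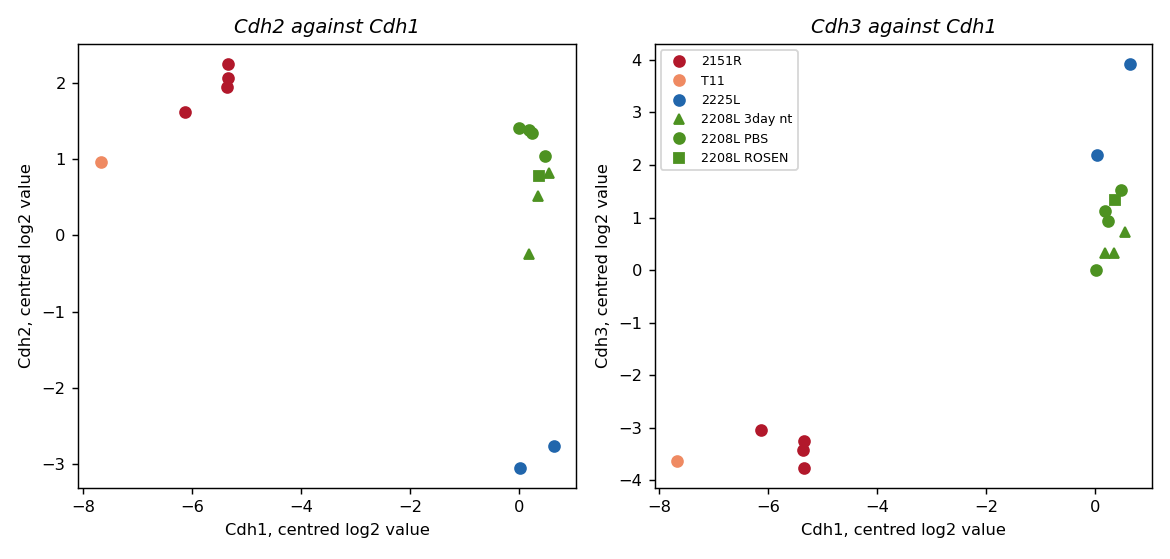
Cdh2 (left) and Cdh3 (right) on the vertical axis against Cdh1 on the horizontal axis, as centred log2 values, with 1 point per sample, coloured by model. Samples of 2208L had both Cdh1 (0.01 to 0.56) and Cdh2 (-0.24 to 1.41) near or above the reference level, 2225L had Cdh2 at -2.77 and -3.05, and 2151R had Cdh1 between -6.13 and -5.34.

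Cdh2, which encodes N-cadherin, was lowest in 2225L, with -2.77 and -3.05. It was 2.25, 1.62, 1.95 and 2.07 in replicates 1 to 4 of 2151R and 0.96 in T11. In 2208L it ran from -0.24 to 1.41 with a median of 0.93. Each sample of 2151R was above each of 2208L, while T11 lay inside the range of 2208L, and 2225L was far below the other 3 models. The mean of 2225L (-2.91 ± 0.20, SD, n = 2) was lower than that of 2208L (0.88 ± 0.56, SD, n = 8) with a difference of -3.79 (SE 0.36; limma adjusted p 6.69e-06), or 13.9-fold on the deposited scale. Between 2151R and 2208L the difference was 1.09 (SE 0.28, limma adjusted p 0.00551), and 31.8% of all genes differed by more. Thus Cdh2 was not high only where Cdh1 was low: 2208L and 2151R differed 57.3-fold in Cdh1 and 2.13-fold in Cdh2, on the deposited scale.

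The Cdh2 difference between 2151R and 2208L, or its call, depended on which samples were used. Against PBS samples alone it was 0.68 (limma adjusted p 0.0105), and against 3day nt samples alone 1.61 (limma adjusted p 0.00197). When only samples with NT, nt or PBS in the title were used it was 1.11 (SE 0.40) and was no longer called (limma adjusted p 0.0578). That choice leaves out replicates 1 and 2 of 2151R as well as the ROSEN sample of 2208L. Without the 3 samples of high muscle score, which include replicate 3 of 2151R, the difference was 0.85 (limma adjusted p 0.00984). For Cdh1, the differences from PBS and from 3day nt samples were -5.77 and -5.91. For Vim they were 3.01 and 3.23.

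Cdh11, which encodes a cadherin of mesenchymal cells, did not follow Vim. It was 0.54, 1.15, 0.61 and 1.08 in replicates 1 to 4 of 2151R, 0.24 in T11, and -0.22 and 0.00 in 2225L. In 2208L it ran from -0.14 to 1.90 with a median of 1.41. The range of 2208L covered all samples of 2151R and T11. Between 2151R and 2208L the difference was -0.26 (SE 0.34, limma adjusted p 0.552), and it was 0.02 without the 3 samples of high muscle score. In 2225L Cdh11 was lower than in 2208L, with a difference of -1.22 (SE 0.44; limma adjusted p 0.0494), with overlapping groups. That call was lost on leaving out either sample of 2225L or any of replicates 2, 3, 4, 6, 7 and 8 of 2208L (adjusted p from 0.0617 to 0.193), and was kept without replicate 1 or replicate 5 of 2208L. It was also lost with library prefix as a covariate (difference -0.91, limma adjusted p 0.134) and without the 3 samples of high muscle score (difference -1.02, limma adjusted p 0.0997).

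Fibroblast markers were set beside Cdh11, since cadherin 11 is typical of fibroblasts. The fibroblast score (10 genes) was -0.75 and -0.69 in 2225L, from -1.57 to 0.80 in 2208L, from 0.23 to 1.18 in 2151R and 0.62 in T11. Between 2225L and 2208L 0 of the 10 genes were called by limma, where 32.9% of all genes were. Within 2208L, the samples with the lowest Cdh11 (replicate 1 at -0.14 and replicate 5 at 0.26) also had the lowest fibroblast scores (-1.57 and -0.64). The part of fibroblasts in the Cdh11 values was not tested. In bulk tumour RNA, fewer cells of a type and less RNA per cell cannot be told apart.

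Vim, which encodes vimentin, was 2.23, 2.32, 2.24 and 2.27 in replicates 1 to 4 of 2151R and 2.28 in T11. In 2208L it ran from -1.39 to -0.48 with a median of -0.79, and it was -0.14 and -0.56 in 2225L. The samples of 2151R and T11 formed a narrow group above all the others. Vim was higher in 2151R (2.27 ± 0.040, SD, n = 4) than in 2208L (-0.82 ± 0.31, SD, n = 8) by 3.09 (SE 0.17, limma adjusted p 7.63e-09), 8.51-fold on the deposited scale. Between 2225L and 2208L it was not called (difference 0.47, SE 0.22, limma adjusted p 0.122). After quantile normalization that difference was 0.72 and was called (limma adjusted p 0.0338). The order of the means was T11, 2151R, 2225L and 2208L, and neither the first pair nor the last pair differed beyond its spread in the values as deposited.

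Stromal markers moved partly with Vim. Of 10 macrophage markers 7 were called higher in 2151R than in 2208L, of 7 endothelial markers 5 higher and 1 lower, and of 10 fibroblast markers 3 higher. Over all genes 26.1% were called higher and 22.7% lower, so the fibroblast count was near that share. Of 4 pericyte markers 0 were higher and 1 lower, and of 4 Schwann cell markers 0 higher and 2 lower. Of 5 T cell markers 1 was higher, and of 4 B cell and 8 skeletal muscle markers 0 were called. Of 6 adipocyte markers, 4 of which hold repeated values, 2 were called higher, with a median difference of 4.19, and their score ran from 1.43 to 4.55 in 2151R and from -4.87 to 2.09 in 2208L, and was -1.61 in T11. The macrophage score ran from 0.56 to 0.93 in 2151R and from -0.97 to 0.57 in 2208L, and was 1.16 in T11. In 2225L, where Vim was not called against 2208L, 6 of the 10 macrophage markers were called lower (17.3% of all genes were). The macrophage score there was -1.69 and -0.83. The part of these cells in the Vim difference was not tested. The table has no absolute levels, so it cannot show which of the markers are at 0.

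**Figure D3:**
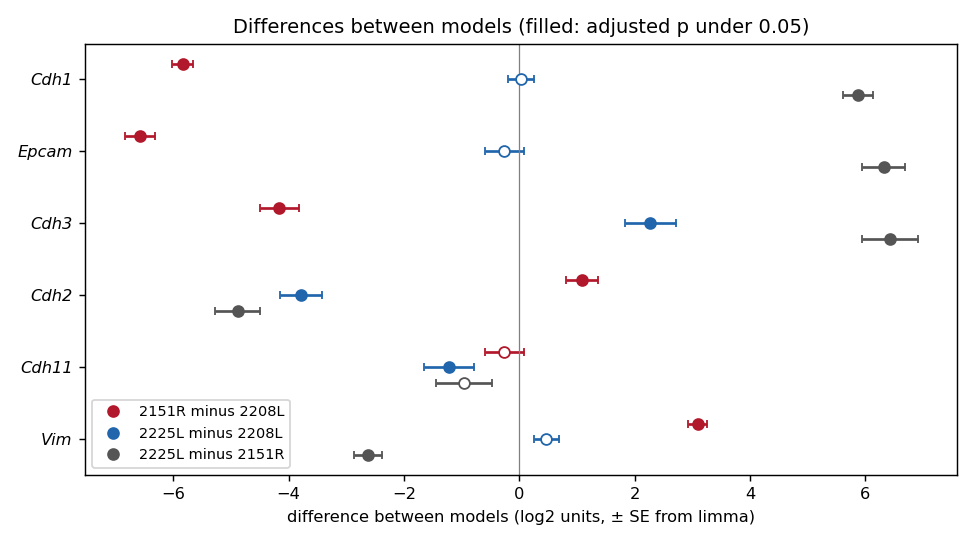
Difference between model means in log2 units (horizontal axis, error bars are the SE from limma) for each of the 6 genes, with 3 comparisons in colour and filled points for adjusted p under 0.05. Cdh1 and Epcam differed between 2151R and either other model but not between 2225L and 2208L, while Cdh2 and Cdh3 were called in all 3 comparisons.

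Within models the genes varied to different degrees. In 2151R the range of Vim over 4 samples was 0.09, and 1.37% of all genes had a smaller one, whereas the range of Epcam was 1.22 and 84.4% of genes had a smaller one. Over the 8 samples of 2208L, Cdh1 had a range of 0.55, where the median gene had 1.17 and 9.59% of genes had less. Cdh11 had the widest range of the 6 genes in 2208L (2.04, with 77.1% of genes below it), followed by Cdh2 (1.65, with 69.0%) and Cdh3 (1.52, with 65.1%). Vim (0.90, with 34.0%) and Epcam (0.87, with 31.7%) had narrower ranges. The samples of 2225L differed most at Cdh3 (1.73, with 84.8% of genes below it) and Epcam (1.23, with 74.0%). They differed least at Cdh11 (0.22, with 18.6%). One of these samples carries a CP and the other a ROSEN number, so variation within 2225L and a difference between library sources cannot be told apart. Thus within 2208L Cdh1, Epcam and Vim ranged less than the median gene, and Cdh2, Cdh3 and Cdh11 more.

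The PBS and 3day nt samples of 2208L differed at Cdh2. Of the 6 genes 1 was called, against 34.0% of all genes, and the groups did not overlap at 1, against 44.8%. Cdh2 was 1.04, 1.35, 1.38 and 1.41 in the PBS samples and -0.24, 0.82 and 0.52 in the 3day nt samples, and 0.78 in the ROSEN sample. The PBS samples were higher by 0.93 (SE 0.26, limma adjusted p 0.0337). The call was lost on leaving out any of replicates 2, 3, 4, 5, 6 or 8 of 2208L (adjusted p from 0.0526 to 0.0822) and was kept without replicate 7. The 3day nt samples of high muscle score are replicates 6 and 8, and the difference was 0.63 without the former and 1.01 without the latter. The other 5 genes were not called between the subsets, with differences from -0.30 (Cdh11) to 0.44 (Cdh3). Leaving out replicate 5 made the Cdh3 difference 0.73, which was called (limma adjusted p 0.0354). The subsets come from separate ranges of library numbers, so an effect of subset and one of library number cannot be told apart.

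T11 resembled 2151R at Vim and Cdh3 and lay below it at Cdh1, Epcam, Cdh2 and Cdh11. It was lower than the mean of 2151R by a difference of -4.13 at Epcam, -2.13 at Cdh1, -1.01 at Cdh2 and -0.60 at Cdh11, and below the lowest sample of 2151R at each. Over all genes the median difference between T11 and 2151R was 0.09, and between T11 and 2208L 0.18. The size of the Epcam difference from 2151R was exceeded by 2.12% of genes, that of Cdh1 by 8.66%, that of Cdh2 by 25.1% and that of Cdh11 by 43.8%. After quantile normalization these differences were -1.23 at Epcam, -0.14 at Cdh1 and -1.29 at Cdh2, so how far T11 lay below 2151R at Epcam and Cdh1 depends on the scaling. Against 2208L, Epcam was lower by a difference of -10.71 as deposited and -7.16 after quantile normalization, and Cdh2 differed by 0.08 and -0.21.

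For each of the 6 genes 14177 others were searched, without genes holding a repeated value and without symbols such as Gm with a number or Rik. The genes whose patterns were most alike were found by the mean absolute difference over the 15 samples, after each gene's own mean was taken off. The 15 samples fall into models, so this measure mostly reflects model means. For Cdh1 (own mean distance from its mean 2.79) they included Fam83a (0.28) and BC006965 (0.29). For Epcam they were Elf3 (0.29), an epithelial ETS factor, BC006965 (0.35) and Kdf1 (0.35), a regulator of keratinocyte differentiation. Elf3 stood at -5.75 in 2151R, -10.36 in T11, 1.67 in 2225L and 0.98 in 2208L on average. For Cdh3 the nearest were Plekha7 (0.38), which encodes an adherens junction protein, Otx1 (0.39) and Nectin4 (0.43), which encodes a nectin.

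For Cdh2 the nearest genes were Ercc6l2 (0.28), Trpc1 (0.28), a cation channel gene, and Nav3 (0.36), all lowest in 2225L with means from -4.27 to -3.28. The nearest to Cdh11 were Tfpi2 (0.25), a protease inhibitor gene, Anpep (0.28), an aminopeptidase gene, and Eef1akmt3 (0.30), where Cdh11 itself lay 0.590 from its mean on average. For Vim they were Prox2 (0.24), Arsa (0.25), which encodes arylsulfatase A, and Layn (0.27), which encodes a hyaluronan receptor. None of the 6 genes was among the 3 nearest of another.

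Other cadherins went in both directions. Of 19 further cadherin genes listed, 9 were in the table, and between 2151R and 2208L 3 were called higher and 2 lower, a share near the 48.8% of all genes called, with a median difference of -0.59 against 0.10 over all genes. Cdh19 differed by -3.52 (SE 0.68) and Cdh6 by -2.94 (SE 0.57), both lower in 2151R, and 2 samples shared a repeated value at Cdh19. Both were also lower in 2225L than in 2208L, by differences of -4.86 and -3.32, and the Cdh6 call was lost without replicate 1 of 2225L (difference -1.98, limma adjusted p 0.0957). In 2225L against 2208L, where 32.9% of all genes were called, 1 was called higher and 4 lower, or 1 lower without replicate 1 of 2225L. Cdh15, the cadherin of muscle precursor cells, was 7.54 in T11, where 2151R ran from -0.91 to 0.48 and 2208L from -5.93 to 2.06. It was chosen after its values were seen, and T11 had a skeletal muscle score of 0.83.

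Catenins and junction partners of cadherins were lower in 2151R for 7 of 13 genes and higher for 2, against 48.8% of all genes called in either direction, with a median difference of -0.51. Nectin4 (difference -4.46, SE 0.20, limma adjusted p 9.18e-10) and Jup, which encodes plakoglobin (difference -4.07, SE 0.17, limma adjusted p 5.93e-10), differed most. Ctnnb1, which encodes beta-catenin, differed by -0.51 and Ctnnd1, which encodes p120 catenin, by -0.25, and the latter was not called. In 2225L against 2208L, where 32.9% of all genes were called, 5 were higher and 1 lower, with Ctnnd2 at 3.82 and Nectin4 at 2.03. That count of lower genes was 3 without replicate 1 of 2225L and 0 without replicate 2. The 2 genes called higher in 2151R, Vcl (1.08) and Nectin3 (1.02), fell to 1 call without replicate 1 or replicate 4 of 2151R. Over all alternative fits the lowest count of higher genes was 0.

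Relatives and partners of EpCAM went largely with Epcam in 2151R: 5 of 9 were lower and 1 higher, with a median difference of -3.18. Over all genes 22.7% were called lower and 26.1% higher. Cldn7, whose product binds EpCAM, differed by -8.34 (SE 0.31), St14, which encodes the protease matriptase, by -6.55 (SE 0.18), and its inhibitor genes Spint2 and Spint1 by -6.36 and -5.29. The gene called higher was Cd44 (1.26), a hyaluronan receptor gene. In 2225L against 2208L 2 of the 9 were called lower, Fhl2 (-2.11) and Cd44 (-1.63), where 17.3% of all genes were called lower.

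Genes that process cadherins or EpCAM went in both directions. Of 10 such protease, ligase and secretase genes, 3 were called in each direction between 2151R and 2208L (26.1% of all genes were called higher and 22.7% lower), with Psenen at -0.80 and Furin at 0.72. Both calls were lost without replicate 1 of 2151R (Psenen -0.73, Furin 0.63), against PBS samples alone (-0.42 and 0.40), with only NT, nt or PBS titles (-0.75 and 0.66) and without the samples of high muscle score (-0.66 and 0.68). The Furin call was also lost without replicate 4 of 2151R (0.65) and after quantile normalization (0.67). Without replicate 1 of 2151R 1 gene was called lower. In 2225L against 2208L, where 32.9% of all genes were called, 0 were higher and 5 lower, with Adam17 at -1.34 and Furin at -1.10. After quantile normalization Furin differed by -0.92 there and was not called (limma adjusted p 0.0616). Without replicate 1 of 2225L 2 were lower and 1 higher, and Furin differed by -0.61 (limma adjusted p 0.236).

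Of 9 other intermediate filament and lamin genes, 5 were called higher in 2151R than in 2208L and 1 lower, with a median of 0.84. Over all genes 26.1% were called higher and 22.7% lower. Nefl and Nefm, which encode neurofilament proteins, differed by 7.36 and 2.28, but 4 and 7 samples shared an exact value at them, and without genes of that kind the count of higher genes was 3. Lmna (1.41), which encodes A-type lamins, and Plec (1.98), whose product links filaments to junctions, hold no repeated value. The gene called lower, Synm (-1.76), was not called without replicate 1, 2 or 4 of 2151R or without replicate 2, 3, 4, 5, 6 or 8 of 2208L. In 2225L against 2208L 1 was higher, Lmnb2 (0.99), and 2 were lower, Nes (-1.50) and Lmna (-0.86). These counts were near the shares of all genes called higher (15.6%) and lower (17.3%). The Nes call was lost without replicate 2 of 2225L (difference -1.16) and after quantile normalization (difference -1.29, limma adjusted p 0.0569).

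Among 14 regulators of the transition, 2151R had 4 called higher and 7 called lower against 2208L. Over all genes 26.1% were called higher and 22.7% lower, so the count of higher genes was near that share. The lower ones included Ovol2 (-6.71), Esrp1 (-6.68) and Grhl2 (-5.51), which maintain epithelial gene expression or splicing, and the higher ones Zeb1 (3.88) and Zeb2 (2.47), which repress Cdh1. Twist1 (-0.79) and Foxc2 (-1.94), which are known as drivers of the transition, were lower in 2151R. Snai2 (0.08) and Snai1 (0.41) were not called there. Snai2 was called after quantile normalization (0.93, limma adjusted p 0.00916), and Snai1 against 3day nt samples alone (0.66, limma adjusted p 0.0261). In 2225L against 2208L 1 was higher, Snai2 (2.90, limma adjusted p 0.000386), and 5 were lower, with Snai1 at -2.47. Over all genes 15.6% were called higher and 17.3% lower in 2225L.

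**Figure D4:**
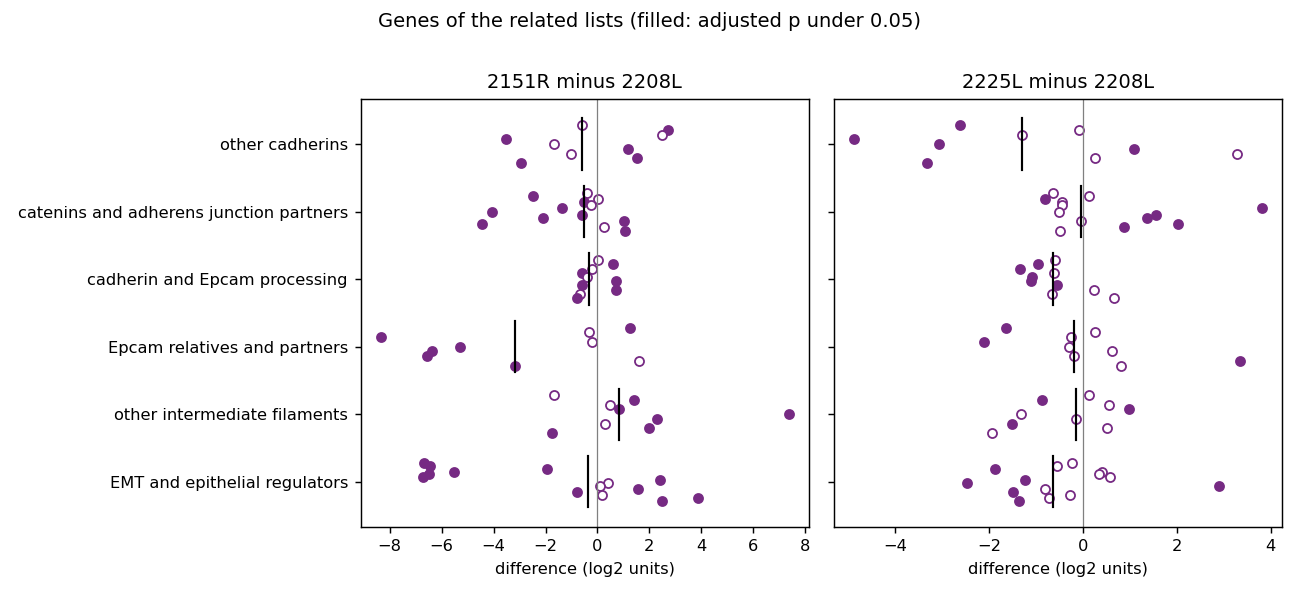
Difference in log2 units (horizontal axis) of each gene of the 6 related lists (rows), for 2151R minus 2208L (left) and 2225L minus 2208L (right); points are genes, filled where the adjusted p was under 0.05, and bars are list medians. The median of EpCAM relatives and partners was -3.18 on the left and -0.19 on the right.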

How the data were processed

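RNA-seq of poly(A) libraries was made from total RNA of 15 mouse mammary tumour samples, per the labels' protocols. The submitters' processing notes name STAR, Salmon and the genome mm10, without versions, roles or order. The deposited table gives log2 values for 17271 genes, per the table's name also centred on a median. The set of samples behind that median, the offset before the logarithm and the scaling between samples are not given in the sources used here. With no counts the depth is unknown, and only the spread of the samples gives the precision.

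Groups are the models named in the sample titles, and replicate numbers follow accession order. Differences were tested in R 4.3.3 by the functions lmFit and eBayes of limma 3.58.1, without a trend, on all 17271 genes as deposited, in 1 fit of all 15 samples with a mean per model, and for PBS against 3day nt in a fit of those 7 samples. The fit was also run on simulated data with independent normal noise and few changed genes. These data differ from that setting, so the simulation does not bear on the calls made here. In 727 genes at least 2 samples share an exact value, and none of the 6 members is among them. A symbol match to RefSeq (GRCm38.p6) gave positions. Its promoter table, searched for the members without chromosome 18 where Cdh2 lies, gave 2 of the 6. The shares of promoter windows with a match were counted over the whole promoter table, chromosome 18 included. The named genes are the 6 members, the 3 genes most alike in pattern to each, and the 2 largest called differences of each related list in 2151R against 2208L and in 2225L against 2208L. Other genes of the lists are named to describe them, after their values were seen, and some genes that the rule names are not reported here. The members and lists were chosen with earlier results of these data known. Alternatives were other scalings, fits, gene filters and sample choices.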

Additional observations from a re-analysis of the deposited data

Results flagged for a closer look

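Of 111 groups of 4 or 8 samples searched, 15 held 1 sample separated from the remaining ones, where chance alone gives about 1 in 20, or 5.55. The groups overlap and share samples. Among the 6 members, Cdh1 was -6.13 in replicate 2 of 2151R, with the others from -5.36 to -5.34. Within the PBS samples of 2208L, Cdh2 was 1.04 in replicate 2 (others 1.35 to 1.41) and Epcam 0.50 in replicate 5 (others 0.84 to 0.89). Replicate 5 also had Cldn7 at 0.53 (others 0.96 to 1.0) and, over all of 2208L, Lmnb2 at -1.22 (others -0.83 to -0.58), and its median over all genes was -0.29, the lowest of the 15 samples.

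Among the other genes of 2151R, Cdh19 was -0.04 in replicate 4 (others 1.59 to 1.90), Cdh6 was 1.16 in replicate 1 (others -0.37 to -0.14), and replicate 3 had Jup at -3.40 (others -3.17 to -3.13) and Snai1 at -0.40 (others 0.22 to 0.23). The skeletal muscle marker score of replicate 3 was 5.72 (others -4.26 to -3.90). In 2208L, St14 was 1.54 in replicate 1 (others 0.63 to 1.03) and Nefm 1.0 in replicate 6 (others -0.11 to 0.26). Among the PBS samples, Cdh6 was 1.36 in replicate 3 (others 3.62 to 4.09), and replicate 4 had Nefm at -0.11, with the others at a repeated 0.00, and an adipocyte marker score of 2.09 (others -4.87 to -3.77).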

How the results depend on the processing

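No paired analysis was possible because no title numbers the samples of a model as replicates. Of 14 called member differences, 11 kept their direction and call in every alternative fit run, and the exceptions were Cdh11 in 2225L against 2208L and Cdh2 in 2151R against 2208L and in PBS against 3day nt. The alternatives without 3 samples of high muscle score and the scalings for T11 were chosen after the data were seen. The cause of these changes was not tested.

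Cdh2 in 2151R against 2208L was 1.11 and not called when only titles with NT, nt or PBS were used. Cdh11 in 2225L against 2208L was not called with trend and robust fitting or with the compared models only (-1.22 in both), with library prefix as a covariate (-0.91) or without the samples of high muscle score (-1.02), and ran from -1.39 to -1.10 on leaving out 1 sample. Cdh11 in 2225L against 2151R was called with the compared models only (-0.96). Vim in 2225L against 2208L was called after quantile normalization (0.72). On leaving out 1 sample, Cdh2 in PBS against 3day nt ran from 0.63 to 1.16 and Cdh3 from 0.23 to 0.73.

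Uncalled differences changed sign for Cdh11 in 2151R against 2208L without the samples of high muscle score (0.02), for Cdh1 in 2225L against 2208L after quantile normalization (-0.03) and for Epcam in PBS against 3day nt after it (0.06). On leaving out 1 sample, Cdh1 in 2225L against 2208L ran from -0.27 to 0.34 and Epcam from -0.88 to 0.35, and Epcam in PBS against 3day nt from -0.19 to 0.02. Among other named genes, Snai2 in 2151R against 2208L was -0.16 with only NT, nt or PBS titles and -0.32 against 3day nt samples, but 0.93 and called after quantile normalization. In the same comparison Nes was -0.23 against PBS samples but 1.0 and called against 3day nt samples, and Adam17 0.03 against 3day nt samples. Nefm in 2225L against 2208L was 0.02 without the samples of high muscle score, and Lmnb2 in PBS against 3day nt was 0.00 after centring on sample medians. On leaving out 1 sample, Snai2 in 2151R against 2208L ran from -0.12 to 0.22. In 2225L against 2151R Cdh19 ran from -2.70 to 0.03 and Cdh6 from -1.72 to 0.96. In PBS against 3day nt Nectin4 ran from -0.24 to 0.01 and Lmnb2 from -0.13 to 0.08.

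For T11, quantile normalization gave -0.14 for Cdh1, -1.29 for Cdh2, 0.09 for Cdh3, -1.23 for Epcam and -0.12 for Vim against 2151R, and -5.28 for Cdh1, -0.21 for Cdh2, -3.68 for Cdh3 and -7.16 for Epcam against 2208L. Centring each sample on its median gave -0.07 for Cdh2 against 2208L and -0.08 for Vim against 2151R.

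With only genes of SD above the median, where fewer genes are tested, 2151R had 2504 genes higher and 2485 lower against 2208L, with 1469 and 1868 in 2225L than in 2208L, 2509 and 2721 in 2225L than in 2151R, and 1516 and 1035 in PBS than in 3day nt. Using only titles with NT, nt or PBS gave 2658 genes higher in 2151R. On leaving out 1 sample, genes higher in PBS ran from 1362 to 3988 and lower from 1017 to 3111. Of the 10 processing genes, 5 were lower in 2151R than in 2208L after quantile normalization and 1 without the samples of high muscle score.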
